A study of Mus musculus with 6 samples.

Results

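The interferon regulatory factors (IRFs) are a family of transcription factors, and 8 of their genes, Irf1, Irf2, Irf3, Irf4, Irf5, Irf7, Irf8 and Irf9, were followed here among the 52997 genes of a count table. They were taken by symbol, and all 8 passed the filter on low counts, which left 11681 tested genes. The table covers naive CD4+ T cells, the helper lineage before it meets antigen, sorted from pooled lymph nodes of mice of 2 ages. Adult mice were 7 weeks old and infant mice 10 days old, with 3 mice and so 3 libraries in each group. All mice were Foxp3-GFP animals on C57BL/6, in which a green fluorescent protein reports the regulatory T cell factor Foxp3, so adult and infant groups carry the same reporter. Each library came from 1000 cells that passed the sorter in 2 rounds. The library titles name the cells Tconv, for conventional T cells. The sources used here do not give the gate. Age was the only label that differed between the groups.

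Adult libraries held 3421253 to 4887371 counts and infant libraries 4115742 to 4739304. Levels are given as CPM, a library's counts divided by its total after TMM scaling and brought to a common size, and 3 counts, taken as the floor of detection for counting error only, were worth 0.628 to 0.852 CPM. The 8 genes together took 0.118% to 0.12% of the counts of adult libraries and 0.0961% to 0.107% of those of infant libraries. Adult replicate 2 stood apart: genes with any count numbered 36373 in it and 17992 to 21840 elsewhere. Its density over 10982 protein-coding autosomal genes that were too low to test was 1.85 counts per kb, and 0.186 to 0.349 elsewhere. Genes of CD4+ identity were abundant, and Cd4, Cd3d, Cd3e, Cd3g, Trac, Cd5, Cd28 and Lck together summed to 6618 to 7666 CPM in adult and 7064 to 7487 CPM in infant libraries.

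IRF proteins bind DNA through a shared domain at their amino terminus that reads repeats of GAAA, the core of the interferon-stimulated response element (ISRE). IRF3 and IRF7 are held in the cytoplasm until kinases downstream of nucleic acid sensors phosphorylate them, and they then switch on type I interferon genes. IRF9 joins phosphorylated STAT proteins in the complex ISGF3, which carries the interferon signal to ISRE-bearing promoters, whereas IRF1 is itself induced by interferon gamma and drives antigen presentation genes, and IRF2 binds the same sites as IRF1 and opposes it at many of them. IRF4 and IRF8 act in lymphoid and myeloid cells together with partners such as BATF and PU.1.

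Matches to the letters of the ISRE core, and in Irf1 to those of a STAT site, are shown for Irf1, Irf2, B2m, Gbp5 and Oas1a. Binding to these matches was not measured. The sequences are RefSeq promoter stretches of GRCm38.p6, printed 5′ to 3′ on the gene's strand, from windows of 250 bases before to 50 bases after the start site. In Irf1 (chr11:53769904-53769952, plus strand) the capitals mark the match to the STAT site GAS (TTCNNNGAA), from 90 to 82 bases before the start site. In Irf2 (chr8:46739495-46739533, plus), B2m (chr2:122147528-122147577, plus), Gbp5 (chr3:142496749-142496798, plus) and Oas1a (chr5:120907510-120907565, minus) they mark the ISRE core GAAANNGAAA on either strand. In Gbp5 the match lies on the opposite strand, and in Oas1a 2 overlapping matches run from 20 to 5 bases before the start site.
Irf1: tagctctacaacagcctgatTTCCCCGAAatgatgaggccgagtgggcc
Irf2: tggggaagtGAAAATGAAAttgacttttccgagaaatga
B2m: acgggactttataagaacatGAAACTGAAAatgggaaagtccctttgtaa
Gbp5: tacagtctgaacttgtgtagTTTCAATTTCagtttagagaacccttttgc
Oas1a: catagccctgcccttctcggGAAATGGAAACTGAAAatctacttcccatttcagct

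Of the 8 genes, 0 passed the quasi-likelihood test of edgeR at an adjusted p of 0.05, with p-values adjusted by Benjamini-Hochberg over every tested gene. Against that stands a background of 3.64% of tested genes, with 2.11% higher and 1.52% lower in adult cells. At an unadjusted p under 0.05 the count was 1 of 8, against 17.3% of all tested genes, and DESeq2 and limma-voom each called 1. That gene was Irf9 each time. The log2 fold change of adult over infant was positive for 7 of the 8 genes, with a median of 0.27, whereas over all tested genes 50.3% were positive and the median was 0.0017. Without adult replicate 2 it was positive for 5 of the 8 genes, with a median of 0.22, and 48.9% of all tested genes were positive. With any other single library left out it was positive for 6 to 8 of them. The 3 adult values lay wholly above the 3 infant values for 1 of the 8 genes, Irf9, where 11.6% of tested genes did so and 22.8% were separated in either direction. The plot of CPM by library shows the 8 genes at widely spread levels, with the ages overlapping at all but Irf9.

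**Figure D1:**
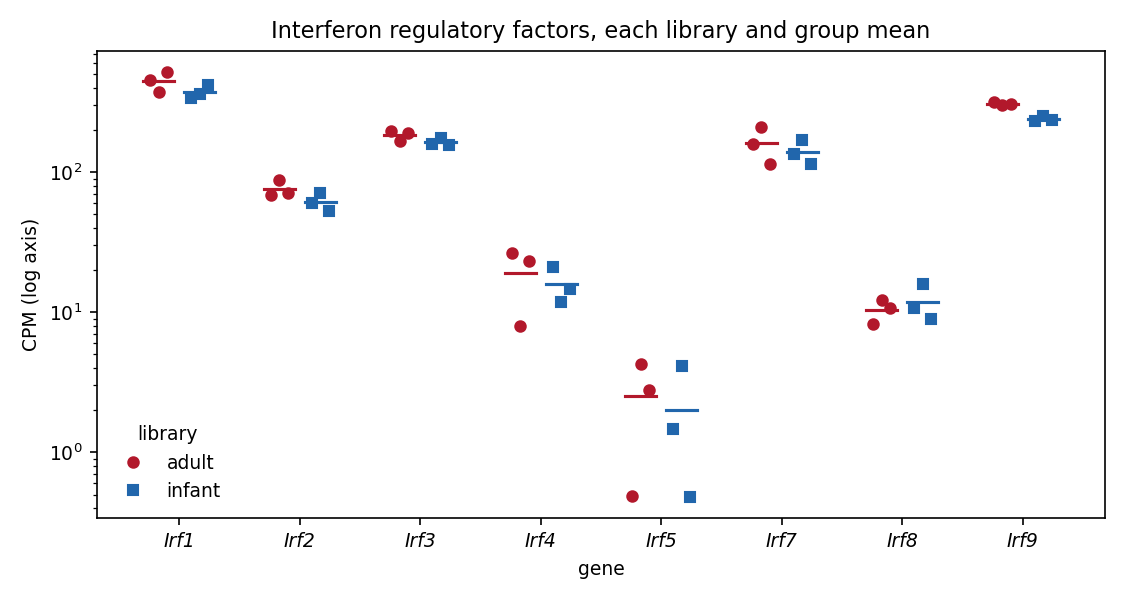
CPM on a log axis for the 8 interferon regulatory factor genes, with 1 point for each library (adult as circles, infant as squares) and a line at each group mean. The adult values lie wholly above the infant values at Irf9 alone, while at Irf5 the points spread from 0.483 to 4.26 CPM.

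Irf9, the DNA-binding subunit of ISGF3 (chromosome 14, 55603571 to 55610030, mm10, plus strand), was the member with the lowest p. It had 316.9, 302.3 and 308.3 CPM in adult libraries 1, 2 and 3, against 230.1, 249.8 and 235.2 CPM in infant libraries 1, 2 and 3. The lowest adult library thus stood above the highest infant library, and the spread within each age was small. The means were 309.2 ± 7.32 CPM in adult and 238.4 ± 10.2 CPM in infant libraries (SD, n = 3 each), a log2 fold change of 0.38 ± 0.10 (SE, 95% interval 0.16 to 0.59), or 1.3-fold, at an edgeR adjusted p of 0.0539. This lay just outside the threshold. Irf9 crossed it with DESeq2 (adjusted p = 0.0118), limma-voom (0.0435) and without adult replicate 2 (edgeR, 0.0436), with log2 fold changes of 0.37, 0.38 and 0.39. With any other single library left out, the edgeR adjusted p was 0.133 to 0.206. With the replicate number as a block it was 0.0834. Over all 15 alternatives the adjusted p ran from 0.0118 to 0.53 and the log2 fold change from 0.34 to 0.41. The direction was the same throughout, and the call depended on the tool, the scaling, the filter and the libraries.

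The RNA of STAT2, a partner of IRF9 in ISGF3, was read beside it. Stat2, singled out after its values were seen, had 118.1, 101.4 and 98.7 CPM in adult and 94.0, 76.4 and 78.0 CPM in infant libraries, with no overlap (log2 fold change 0.36 ± 0.14, edgeR adjusted p = 0.190). It did not pass the test. Within single libraries there were 2.68 to 3.12 counts of Irf9 for each count of Stat2 in adult and 2.45 to 3.27 in infant cells. This ratio overlapped between the ages.

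Irf1, the activator induced by interferon gamma (chromosome 11, 53770014 to 53778374, plus strand), had the highest counts of the 8 genes. It had 452.6, 373.3 and 519.2 CPM in adult libraries and 337.5, 363.8 and 417.3 CPM in infant libraries. Adult replicate 2 was below the highest infant library, so that the ages overlapped. The log2 fold change was 0.27 ± 0.13 (95% interval −0.0072 to 0.54, edgeR adjusted p = 0.308), and without adult replicate 2 it was 0.38 with an adjusted p of 0.0725. Irf2, its antagonist at shared sites (chromosome 8, 46739732 to 46847458, plus strand), had 68.9, 88.1 and 70.7 CPM in adult and 59.9, 70.6 and 52.4 CPM in infant libraries. Only adult replicate 1 lay inside the infant range (0.31 ± 0.16, 95% interval −0.026 to 0.65, adjusted p = 0.340). Without adult replicate 2, where Irf2 was highest, the log2 fold change of Irf2 was 0.19 at an adjusted p of 0.623. The activator to antagonist ratio of counts was 6.57, 4.24 and 7.34 in adult libraries and 5.64, 5.15 and 7.96 in infant libraries. Both the lowest and next-to-highest ratio came from adult libraries, so the balance of Irf1 and Irf2 RNA did not separate the ages.

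Irf3, the constitutive factor activated by phosphorylation (chromosome 7, 44997648 to 45002848, plus strand), had the smallest SD relative to its mean after Irf9. It had 196.9, 167.9 and 189.3 CPM in adult libraries, against 158.1, 175.3 and 157.2 CPM in infant libraries. Adult replicate 2 lay within the infant range (log2 fold change 0.18 ± 0.11, 95% interval −0.065 to 0.42, edgeR adjusted p = 0.474). Irf7, the interferon-inducible amplifier of type I interferon (chromosome 7, 141262706 to 141266481, minus strand), varied more from library to library. It had 160.01, 208.5 and 114.5 CPM in adult and 134.6, 170.3 and 114.0 CPM in infant libraries. The ranges overlapped, and the SD was 29.2% of the mean in adult and 20.4% in infant libraries, against 8.13% and 6.25% for Irf3. The log2 fold change of Irf7 was 0.20 ± 0.19 (95% interval −0.21 to 0.61, adjusted p = 0.649) and was −0.027 without adult replicate 2. Irf5, a factor of myeloid and B cells downstream of Toll-like receptors (chromosome 6, 29526625 to 29541871, plus strand), was close to the floor with 2, 15 and 13 counts in adult and 7, 17 and 2 counts in infant libraries. Its interval ran from a log2 fold change of −1.41 to 2.01 (adjusted p = 0.896), and its value was −0.27 without adult replicate 2. The interval spans a several-fold difference in either direction.

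Irf4, which antigen receptor signals induce in T cells (chromosome 13, 30749226 to 30766976, plus strand), was low in these cells. It had 26.4, 7.96 and 23.3 CPM in adult libraries and 21.1, 11.9 and 14.7 CPM in infant libraries. Adult replicate 2 was the lowest of the 6 libraries, and the other adult libraries were the highest. The log2 fold change of Irf4 was 0.28 ± 0.37 (95% interval −0.51 to 1.07, edgeR adjusted p = 0.768), and it was 0.64 without adult replicate 2 (adjusted p = 0.269) and −0.0083 without adult replicate 1 (adjusted p = 0.994). Irf8, best known for dendritic cell, monocyte and B cell development (chromosome 8, 120736358 to 120756694, plus strand), was the only member with a negative value. It had 8.24, 12.2 and 10.7 CPM in adult and 10.7, 15.96 and 8.94 CPM in infant libraries (−0.19 ± 0.33, 95% interval −0.90 to 0.51, adjusted p = 0.831). The ages overlapped, and the sign turned to 0.075 without infant replicate 2.

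**Figure D2:**
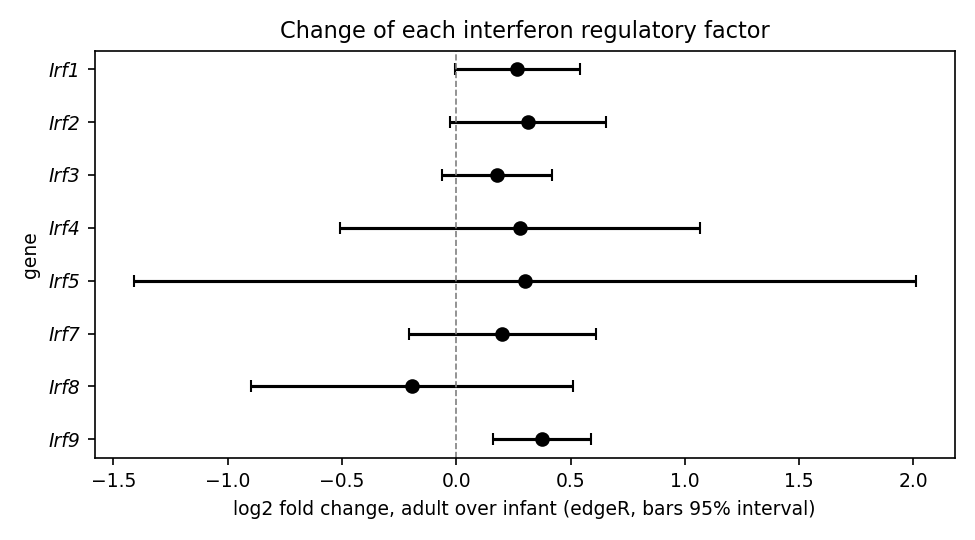
Log2 fold change of adult over infant for each interferon regulatory factor from edgeR, with bars for the 95% interval. The interval excludes 0 for Irf9 alone (0.16 to 0.59), before adjustment over all genes, and is widest for Irf5 (−1.41 to 2.01).

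To compare levels between genes, CPM was divided by the length of each gene's merged exons in kb. Irf1 came first with 113.0 ± 18.4 CPM per kb in adult and 93.8 ± 10.2 CPM per kb in infant libraries (SD, n = 3 each), and its lowest library (84.9) was above every library of the other 7 genes. Irf9 (57.4 ± 1.36 in adult and 44.3 ± 1.90 in infant libraries), Irf3 (53.7 ± 4.36 and 47.5 ± 2.97) and Irf7 (42.6 ± 12.5 and 37.0 ± 7.54) followed with overlapping ranges on the per kb scale, so their order is not fixed by these libraries. Irf2 was next, at 10.3 ± 1.43 CPM per kb in adult and 8.24 ± 1.24 CPM per kb in infant libraries, clear of its neighbours on both sides. Irf4 (3.92 ± 2.02 in adult and 3.24 ± 0.971 in infant libraries), Irf8 (1.47 ± 0.284 and 1.68 ± 0.519) and Irf5 (0.863 ± 0.655 and 0.695 ± 0.646) closed the order with ranges that overlapped from one gene to the next. On this scale Irf1, Irf3, Irf7 and Irf9 thus stood above Irf2, Irf4, Irf5 and Irf8 in every library. Irf5, which acts downstream of Toll-like receptors, had the lowest mean of the 8 genes (0.779 CPM per kb over all libraries).

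The library protocol does not mark strand, so exons shared with a neighbour limit some members. Irf5 shares 411 bases, 14.1% of its exons, with Tnpo3 on the opposite strand, which had 511 to 844 counts in adult and 721 to 981 counts in infant libraries. Irf9 shares 123 bases (2.28%) with Rnf31 on its own strand, whose values were 0.34 on the log2 scale, adult over infant, at an edgeR adjusted p of 0.187. Irf1, Irf3 and Irf7 share 3.4%, 2.56% and 1.19% of their exon bases with genes on the opposite strand. Reads were 25 bases long, and 0 stretches of that length occur in transcripts of more than 1 of the 8 genes. The share of such stretches found in any other gene was 12.9% for Irf5, 6.04% for Irf9, 3.24% for Irf1, 1.87% for Irf3 and under 1% for the other 4 members. The sources used here do not say how reads that match 2 genes were counted, and their part in the values was not tested.

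The genes that feed the IRFs gave no gene that passed the test. Of 21 interferon genes, 0 were tested, 10 were without a count in any library, among them Ifnb1 and Ifng, and 34 counts fell in adult and 2 in infant libraries, of which adult replicate 2 held 29. Of 10 tested genes for interferon receptors, kinases and STATs, 0 passed in either direction (median log2 fold change 0.049), and the most abundant was the kinase gene Jak1 (0.095 ± 0.091). Of 21 tested sensors, adaptors and kinases upstream of IRF3, IRF5 and IRF7, 0 passed as well (median −0.015), with the kinase genes Ikbkb (−0.20 ± 0.095, edgeR adjusted p = 0.301) and Ikbke (−0.14 ± 0.12, adjusted p = 0.635) at the highest levels. The receptor gene Ifngr1, named after its values were seen, had 200.01, 150.9 and 183.3 CPM in adult and 218.6, 237.98 and 245.6 CPM in infant libraries, with no overlap and without passing (−0.39 ± 0.12, adjusted p = 0.0942). These counts stand beside the 3.64% of all tested genes that passed.

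The lists of genes that act with or against the IRFs each included 1 gene that rose in adult cells, where 2.11% of all tested genes did so. Among 19 tested partners and cofactors it was Junb, an AP-1 subunit that pairs with BATF at sites shared with IRF4 (median of the list 0.17). Junb had 183.8, 219.3 and 182.5 CPM in adult and 143.6, 130.1 and 142.97 CPM in infant libraries (0.49 ± 0.12, edgeR adjusted p = 0.0319). Its call was lost without any single library (adjusted p 0.0648 to 0.199), with no filter (adjusted p = 0.194) and with the replicate number as a block (adjusted p = 0.0662), while the direction stayed. Among 11 tested negative regulators of interferon signalling it was Socs3, an inhibitor of JAK kinases that is best known for damping interleukin 6 signals (median of the list 0.0042). Socs3 had 117.6, 91.5 and 136.1 CPM in adult and 33.1, 42.3 and 25.8 CPM in infant libraries (1.77 ± 0.19, adjusted p = 1.35e-04), and it passed under all 15 alternatives. The adult values of Socs3 were far above the infant values, unlike those of Socs1, the inhibitor of interferon receptors, which was chosen after its values were seen (38.3, 36.4 and 18.6 CPM in adult and 7.75, 28.3 and 37.4 CPM in infant libraries, 0.35 ± 0.41, adjusted p = 0.735).

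Known targets of the family held more genes that passed than the family did, which was not tested as a difference. The target lists, like the other lists, were chosen with earlier results of these data known. Of 30 tested ISGF3 targets, 6 rose in adult cells, 0 fell and 24 did not pass (median 0.29, with 26 positive), against the 2.11% of all tested genes that rose. The 6 were the oligoadenylate synthetase genes Oas1a, Oasl1 and Oas2, which sense double-stranded RNA or derive from such sensors, the interferon-induced genes Ifi44 and Ifi27, and the surface protein gene Ly6e. Oas1a had 29.1, 27.6 and 18.4 CPM in adult and 3.98, 3.39 and 2.42 CPM in infant libraries (2.92 ± 0.33, edgeR adjusted p = 1.78e-04). Ifi44 had 52, 37 and 39 counts in adult and 5, 0 and 3 counts in infant libraries (4.05 ± 0.65, adjusted p = 0.00283). The adult and infant ranges of both genes were far apart. Oasl1, Oas2, Ly6e and Ifi27 rose by 1.94 ± 0.25, 1.35 ± 0.21, 1.12 ± 0.098 and 0.60 ± 0.15. Ifi27 was no longer past the threshold with adult replicate 1 or 3, or infant replicate 1 or 2, left out (edgeR adjusted p 0.121 to 0.226). With libraries thinned to the smallest, Ifi27 missed it too (adjusted p = 0.0557). Stretches of 25 bases that Oas1a, Oasl1 and Oas2 share with other genes were not counted. How far reads from related genes enter their values is therefore uncertain. Isg15, the ubiquitin-like modifier named after its values were seen, had 12.1, 27.6 and 6.20 CPM in adult and 9.21, 15.5 and 8.69 CPM in infant libraries and did not pass (0.44 ± 0.45, adjusted p = 0.676). Its value was −0.29 without adult replicate 2 (adjusted p = 0.785).

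Of 23 tested IRF1 targets, 4 rose in adult cells and 0 fell (median 0.099), against 2.11% and 1.52% of all tested genes. Casp1, the inflammasome protease, had 30, 33 and 29 counts in adult and 0 counts in each infant library. With 3 counts over the infant group taken as the floor, Casp1 was at least 32.5-fold higher in adult cells (edgeR adjusted p = 9.27e-04). Gbp5, a guanylate-binding protein of the interferon response, had 20.6, 23.9 and 27.99 CPM in adult and 10.9, 8.46 and 9.42 CPM in infant libraries (1.33 ± 0.25, adjusted p = 0.00920), and it missed the threshold with adult replicate 3 or infant replicate 2 left out (adjusted p = 0.0548 and 0.0611). The class I light chain B2m and heavy chain H2-K1 rose by 0.54 ± 0.097 and 0.58 ± 0.11. Both missed the threshold when adult replicate 1, infant replicate 1 or infant replicate 2 was left out (B2m 0.0516 to 0.0690), and H2-K1 did so for adult replicate 3 too (H2-K1 0.057 to 0.108). With no filter both missed it as well (adjusted p = 0.130 for B2m and 0.109 for H2-K1). H2-K1 shares sequence with other class I genes, so its value is uncertain with short reads. The count of 4 was 1 to 2 with any of those 4 libraries left out, and 2 with no filter. Of 11 tested IRF4 targets in T cells, 0 rose and 1 fell in adult cells (median 0.13), where 1.52% of all tested genes fell, and 2 genes of the list passed without adult replicate 2. The gene that fell was the chemokine receptor gene Ccr8, at 1.94, 1.42 and 8.33 CPM in adult and 23.0, 27.1 and 31.9 CPM in infant libraries (−2.74 ± 0.46, adjusted p = 0.00363). Members of these lists that passed stand out in the plot of fold changes by list, where the IRF genes sit in a narrow band.

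**Figure D3:**
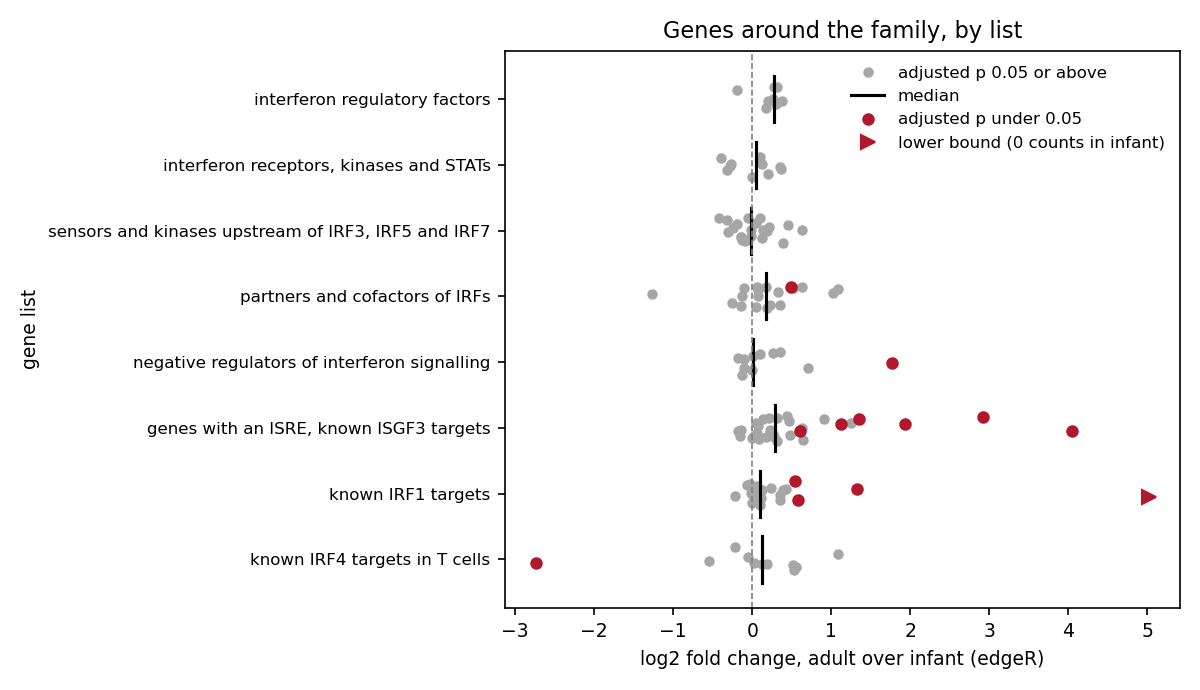
Log2 fold change of adult over infant (edgeR) for the 8 interferon regulatory factors and for tested genes of 7 lists around them, with 1 point a gene, red where the adjusted p was under 0.05, and a line at each median. Casp1 is drawn as a triangle at its lower bound, since infant libraries held 0 counts, and the IRF genes lie between −0.19 and 0.38.

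The ISRE core was then counted in the promoter windows. At least 1 window of 3.99% of 27025 genes held it, as did 10 of the 22 listed ISGF3 targets with a window (45.5%). Among the 8 IRF genes it was found in Irf2 alone, and the GAS letters, which 9.55% of genes held, were found in Irf1, Irf2 and Irf8. Irf9, the member with the lowest p, held neither in its 2 windows. These windows begin at bases 55603735 and 55604329 of chromosome 14, inside the annotated gene, which begins at 55603571. The bases before the annotated gene were therefore not searched. Of 319 tested genes with the ISRE core, 20 (6.27%) rose in adult cells and 5 (1.57%) fell, whereas of 8005 tested genes without it 164 (2.05%) rose and 132 (1.65%) fell. Over both kinds together 2.21% rose and 1.65% fell. The share that rose was 3.03% with and 0.925% without the core when adult replicate 1 was left out, and 2.1% and 0.807% without infant replicate 1. The median log2 fold change was 0.057 with the core and −0.0004 without it. For the GAS letters the shares that rose were 2.58% of 697 tested genes with them and 2.18% of 7627 without them.

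Of the 20 genes with the core that rose, 3 were in the lists above (Oas1a, B2m and Gbp5), and 17 were not. Among the ISGF3 targets that rose, Oas1a alone held the core in a searched window. The windows of Ifi44 and Oasl1 did not hold it, and Oas2, Ly6e and Ifi27 had no window to search. Among the 17, named after their values were seen, were the antiviral cytidine deaminase gene Apobec3 (0.62, edgeR adjusted p = 0.00367), the DNA-sensor family genes Ifi213 and Ifi214 (0.70 and 1.54), Ifit1bl1 (0.92) and the class I genes H2-T22 and H2-T23 (0.43 and 0.42). The others included Wls, which carries Wnt proteins to the cell surface (1.83), and the ribosomal protein genes Rps19, Rps23 and Rpl38 (0.53, 0.50 and 0.77). Without the listed genes, 5.74% of the remaining 296 tested genes with the core rose. The 5 that fell in adult cells were Igf2bp3, Acsbg1, Nebl, Dpp4 and Jaml. These counts describe letters in a window and were not tested as a set. The motifs too were chosen with earlier results of these data known.

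**Figure D4:**
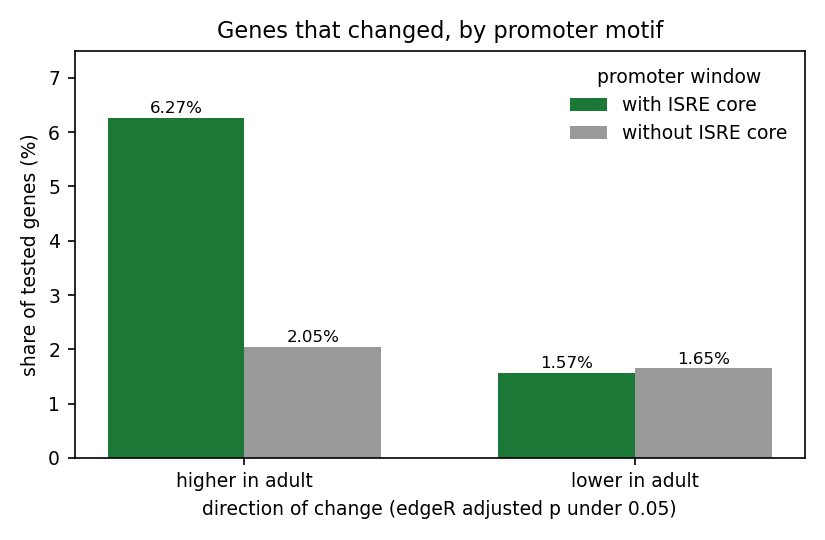
Share of tested genes, in percent, that passed an edgeR adjusted p of 0.05 in each direction, for 319 genes with the ISRE core in a promoter window and 8005 genes without it. The bar for genes with the core that are higher in adult cells (6.27%) stands above the bar for genes without it (2.05%), while the bars for genes lower in adult cells are level (1.57% and 1.65%).

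The genes most like Irf9 across libraries were looked up among 7079 tested genes with a mean of at least 20 CPM. The highest Pearson correlations of log2(CPM + 1) over the 6 libraries were those of Pfdn5, a prefoldin subunit that folds cytoskeletal proteins (0.997), Apobec3 (0.995) and Gm45552 (0.994). They share libraries and depth with Irf9, and 6 points from 2 ages make such values easy to reach. Pfdn5 rose in adult cells by 0.63 ± 0.11 (edgeR adjusted p = 0.00527), and Gm45552 did not pass (0.33 ± 0.10, adjusted p = 0.0966).

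Markers of cells in which IRF4, IRF5, IRF7 and IRF8 are abundant were low beside the naive T cell markers. Over all libraries Irf4 itself had 7.96 to 26.4 CPM, Irf5 0.483 to 4.26, Irf7 114.0 to 208.5 and Irf8 8.24 to 15.96 CPM. The marker sums were thus not low beside every one of these genes. The 8 B cell markers summed to 8.0 to 19.0 CPM in adult and 5.56 to 9.18 CPM in infant libraries, the 8 dendritic cell markers to 9.40 to 33.2 and 9.43 to 18.4 CPM, and the 8 monocyte and macrophage markers to 1.07 to 6.82 and 3.62 to 7.75 CPM. Each of these 24 markers had a count in at least 1 library, and Blk, Cd22, Siglech, Cd209a, Fcgr1 and C1qc were among those with counts in adult replicate 2 alone. The B cell gene Cd79a, the dendritic cell gene Zbtb46 and the macrophage gene Cd68 were the only ones that were tested, and none of them passed. Itgax, which marks dendritic cells, had 35 counts in adult replicate 2 and at most 1 elsewhere. The 8 naive T cell markers summed to 5466 to 6477 CPM in adult and 5615 to 5722 CPM in infant libraries, the 8 regulatory T cell markers to 162 to 198 and 147 to 159 CPM, the 8 activation and memory markers to 119 to 164 and 158 to 176 CPM, the 2 CD8 markers to 31.3 to 36.5 and 32.0 to 41.8 CPM and the 6 erythroid markers to 3.64 to 4.83 and 3.38 to 8.71 CPM. The 8 natural killer cell markers differed most, at 105 to 115 CPM in adult and 28.8 to 36.9 CPM in infant libraries (two-sided p = 0.1 by exact permutation, which 3 against 3 cannot go below), carried by the cytotoxic genes Prf1 and Klrd1, which T cells also express, with the defining receptor gene Ncr1 at 0 in all libraries. In bulk RNA fewer cells of a type and less RNA per cell cannot be told apart, and the part of these cells in the IRF values was not tested.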

How the data were processed

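RNA of sorted CD4+ T cells was measured in 3 adult and 3 infant libraries. Per the labels' protocols, poly(A) RNA was copied from an oligo(dT) primer, amplified, fragmented by a transposase and sequenced in paired 25-base reads without molecular identifiers. Per the submitters' processing notes, the tools were STAR 2.5.4 and featureCounts with build mm10. The sources used here do not give the annotation release or strand setting. The values are raw counts by gene symbol as the authors deposited them, and 0 columns belonged to another sample.

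The fit was edgeR's quasi-likelihood model (version 4.0.16, R 4.3.3) with no covariates, after filterByExpr (minimum count 10, minimum total 15) and TMM scaling, with Benjamini-Hochberg adjustment over 11681 genes at 0.05. Log2 fold changes are adult over infant. SEs were obtained by dividing the size of the log2 fold change by the root of F, and intervals use the test's degrees of freedom. DESeq2 1.42.0, limma 3.58.1 voom, other scalings and filters, thinning to 3421253 counts and left-out libraries were alternatives. The fits were run on simulated data with planted changes larger than those estimated for the IRF genes. Changes as small as theirs were therefore not covered. No 2 libraries of a group were alike within sampling noise (chi-square over its degrees of freedom 5.38 to 11.4). Whether preparation differed between the ages is not given, so batch and age cannot be told apart.

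Exon lengths and positions came from GENCODE M21 (mm10) and promoters from RefSeq (GRCm38.p6), which matched all 8 members. Members, lists and motifs were chosen with earlier results of these data known. The rule for named genes took all members, the genes of a list that passed (up to 6 of smallest p) or else the 2 of highest mean CPM, and the 3 genes most correlated with Irf9; exceptions are marked. Some genes that the rule takes are not reported here.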

Additional observations from a re-analysis of the deposited data

How the results depend on the processing

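The direction of Irf1, Irf2, Irf3 and Irf9 was the same under all 15 alternative fits, with Irf1, Irf2 and Irf3 never past the threshold. With a library left out the sign turned for Irf4 (−0.0083 to 0.64, negative without adult replicate 1), Irf5 (−0.27 to 1.30, negative without adult replicate 2 and, at −0.15, infant replicate 3), Irf7 (−0.027 to 0.40, negative without adult replicate 2) and Irf8 (−0.36 to 0.075, positive without infant replicate 2). Irf5 was not tested under the stricter filter or thinning. The count of IRF genes past the threshold was 0 in edgeR with TMM, with DESeq2 size factors (Irf9 adjusted p = 0.0562) and with no filter (0.53). It was 1, always Irf9, with upper-quartile factors, library totals, the stricter filter (at least 10 counts in 3 libraries, mean of 20 or more), the DESeq2 and limma-voom tests and thinning to the smallest library, and 0 to 1 with a library left out. The cause was not tested.

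Over all genes the count of 425 was 139 to 488 with a library left out, with 488 without adult replicate 2, and 162 at an adjusted p of 0.01. Calls by DESeq2 numbered 622. The count of 13 pathway genes was 8 without infant replicate 2 and otherwise within 1.5 times, with 8 to 14 over the left-out libraries. Genes with the ISRE core that rose numbered 7 to 22 with a library left out, settings added after the data had been seen, and the share with the core was above the share without it in each of the 16 settings. Scaling did not move the median of all genes by more than 0.1, and without a filter that median was 0.84.

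Same-numbered adult and infant libraries did not deviate together (correlations −0.057, −0.007 and −0.102). With the replicate number as a block 326 genes passed, 0 of them IRF genes (Irf9 adjusted p = 0.0834, edgeR), and 20 genes with the ISRE core rose. The values of Irf5, Irf8 and Irf4 are the least certain, with 95% intervals of fold from 0.376 to 4.03, 0.537 to 1.42 and 0.703 to 2.09. Floors cover counting error only, whereas the intervals of the fits include the spread between libraries.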
